A study of Mus musculus with 24 samples.

Results

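The genes described here are C1qa, C1qb and C1qc, which encode the 3 chains of complement C1q, and 6 genes through which resting microglia are usually recognised, namely Ctss, Cx3cr1, Csf1r, P2ry12, Tmem119 and Fcrls. They were taken by symbol from both tables of gene expression, where they are 9 of 22562 genes, and all 9 were found in each tissue. The rule uses their symbols alone, and they were proposed with earlier results of these data known.

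Microglia are the resident macrophages of the brain and arise from the yolk sac, not from the neural lineage. They make most of the C1q of the brain, and C1q starts the classical complement cascade, in which it binds a target, activates the proteases C1r and C1s and leads through C4 and C2 to C3. In the resting state microglia survey the tissue with P2ry12, a receptor for ADP, exchange signals with neurons through Cx3cr1, the receptor of fractalkine, and depend for survival on Csf1r, the receptor of Csf1 and Il34. Loss of P2ry12, Tmem119 and Fcrls transcripts with a gain of lysosomal genes is a common description of microglia that leave that state.

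Total RNA was sequenced from whole cerebellum and from cortex of mice. The double mutants carried a conditional Atm allele removed by Nestin-cre together with a null allele of Aptx (Atm Nes-cre; Aptx-/-), and the single mutants were labelled Atm Nes-cre or Aptx-/-. The text of the study also writes the Atm single mutants as Atm-/-, so whether their deletion was conditional or germline is uncertain, and the Atm status of their microglia with it. Atm encodes a kinase that signals DNA breaks and Aptx a hydrolase that clears abortive ligation ends. Nestin-cre acts in the neural lineage, to which microglia do not belong, whereas the Aptx null allele was carried by every cell. There were 6 double mutants, 4 controls and 2 single mutants of each kind from cerebellum, and 6 double mutants and 4 controls from cortex, each a library of its own. Double mutants and littermate controls were 10 months of age. The animals labelled Control are called wild type in the text of the study. The age of the single mutants was not given in the sources used here. The labels name samples and not animals, so the p-values below measure the spread between these samples.

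Levels are given as FPKM, a fragment number scaled to gene length and library size, so they may be compared between genes. The tables hold no read counts, and the absolute depth of each library is unknown. The library names of all controls carry a series code that no mutant name carries, so genotype and library series cannot be told apart in any comparison with controls, whereas double and single mutants of the cerebellum share a code, as do the controls of both tissues. Aptx itself stood at 2.09 to 2.86 FPKM in the 8 cerebella labelled Aptx-/- and at 3.11 to 3.67 in the other 6. Atm transcript was not lower in Atm mutants, at 7.45 to 9.14 FPKM in double and Atm mutants against 6.75 to 7.13 in controls, and reads outside the deleted part say nothing of the deletion. The column of double mutant 6 shares the number format of the controls in both tissues, with over 10 significant digits in 99.8% and 99.9% of its values, where the other mutant columns have at most 0.0448%. The Y-linked transcript Ddx3y was at 19.9 to 28.9 FPKM in double mutants 2, 3 and 5 of both tissues and in Aptx mutant 1, intermediate in double mutant 6 at 2.30 FPKM in cerebellum and 8.24 in cortex, and at most 0.103 in the other libraries, which include all 8 controls and both Atm mutants. It is therefore partly confounded with genotype. The gene Gm10654 stood at 4221, 7289, 2951 and 322070 FPKM in cortex controls 1 to 4 and at most at 1.90 in all other libraries. It thus set all cortex controls apart from all cortex double mutants. Summed FPKM was 554380 in cortex control 4 and 229937 to 256460 in every other library.

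The C1q genes lie next to each other in the order C1qb, C1qc and C1qa within 18675 bp of chromosome 4 (mm9, 136436044 to 136454718), all on the minus strand. Ctss, P2ry12 and Fcrls lie on chromosome 3, Cx3cr1 on chromosome 9 and Tmem119 on chromosome 5.

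The microglial transcription factor PU.1 binds sites with the core GAGGAA, and the 250 bases before the transcription start were searched for it on both strands because all these genes are expressed in one cell type. Windows of C1qb, C1qc, Cx3cr1, Ctss, P2ry12 and Fcrls were found in the RefSeq promoter table (GRCm38.p6), and C1qa, Csf1r and Tmem119 were not used. The core stood 30 bases before the start of C1qb and 193 before that of C1qc, there as TTCCTC on the other strand. It stood 164 bases before the start of Ctss and 144 before that of Fcrls. These 4 windows are shown because they hold the core. Cx3cr1, which was also higher in double than in single mutants, is not among them. Capitals mark the core, and each window reads 5′ to 3′ on the strand of its gene. It was not found in the windows of Cx3cr1 and P2ry12, and 23.3% of all 32851 windows of this length hold it on either strand, so a match is a description and not a binding site.
C1qb, chr4:136886201-136886450, minus strand: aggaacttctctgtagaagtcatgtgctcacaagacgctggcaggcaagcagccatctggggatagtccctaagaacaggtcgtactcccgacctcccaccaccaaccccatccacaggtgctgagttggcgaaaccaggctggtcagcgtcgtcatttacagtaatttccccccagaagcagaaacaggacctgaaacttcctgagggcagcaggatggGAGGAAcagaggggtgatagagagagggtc
C1qc, chr4:136892915-136893164, minus strand: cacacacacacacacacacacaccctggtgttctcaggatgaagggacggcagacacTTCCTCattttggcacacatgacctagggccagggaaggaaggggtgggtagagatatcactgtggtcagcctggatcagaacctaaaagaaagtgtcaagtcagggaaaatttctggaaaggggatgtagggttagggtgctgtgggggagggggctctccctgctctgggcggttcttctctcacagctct
Ctss, chr3:95526536-95526785, plus strand: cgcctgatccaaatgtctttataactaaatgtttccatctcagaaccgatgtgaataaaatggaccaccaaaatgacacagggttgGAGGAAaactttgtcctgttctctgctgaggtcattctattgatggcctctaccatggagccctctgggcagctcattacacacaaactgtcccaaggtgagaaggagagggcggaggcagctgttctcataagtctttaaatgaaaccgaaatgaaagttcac
Fcrls, chr3:87263525-87263774, minus strand: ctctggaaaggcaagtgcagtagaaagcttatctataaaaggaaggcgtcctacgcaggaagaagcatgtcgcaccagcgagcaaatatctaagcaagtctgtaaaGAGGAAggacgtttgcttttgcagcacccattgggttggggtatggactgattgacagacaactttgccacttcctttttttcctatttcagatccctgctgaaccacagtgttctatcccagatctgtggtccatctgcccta

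Csf1r lies on chromosome 18 (mm9, 61265226 to 61291803, plus strand). It overlaps Hmgxb3, and P2ry12 overlaps Med12l, on the opposite strand, while Ctss overlaps the pseudogene Hmgb1-ps5 on its own strand. The strand setting used in counting was not given in the sources used here, so values of these 3 genes may hold reads of their neighbours.

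In control cerebellum the members spanned a wide range of levels. Ctss, which encodes the lysosomal protease cathepsin S, was highest at 19.3 ± 2.30 FPKM (SD, n = 4). The C1q genes followed at 13.9 ± 3.49 (C1qb), 12.02 ± 2.62 (C1qa) and 10.2 ± 0.915 FPKM (C1qc). P2ry12 stood at 6.16 ± 0.587, Csf1r at 5.01 ± 0.528, Cx3cr1 at 3.03 ± 0.112, Tmem119, which encodes a membrane protein of unknown ligand, at 2.79 ± 0.606 and Fcrls, which encodes a scavenger receptor related to Fc receptors, at 1.28 ± 0.421 FPKM. Ranges of the control libraries overlapped between Ctss and C1qb, among the C1q genes, between P2ry12 and Csf1r and between Cx3cr1 and Tmem119. Within each of the 4 libraries, however, Ctss stood above C1qb and C1qb above C1qa. The order of C1qa and C1qc, of P2ry12 and Csf1r and of Cx3cr1 and Tmem119 was reversed in 1 library each. In control cortex Ctss again led at 28.4 ± 1.40 FPKM, and Fcrls, last in cerebellum, had a mean of 7.83 ± 3.70 beside 7.12 ± 0.650 for Cx3cr1. That order of means came from control 4, with Fcrls at 13.4 FPKM, since Cx3cr1 was above Fcrls in the other 3 controls and the medians were 6.20 for Fcrls and 7.18 for Cx3cr1.

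**Figure D1:**
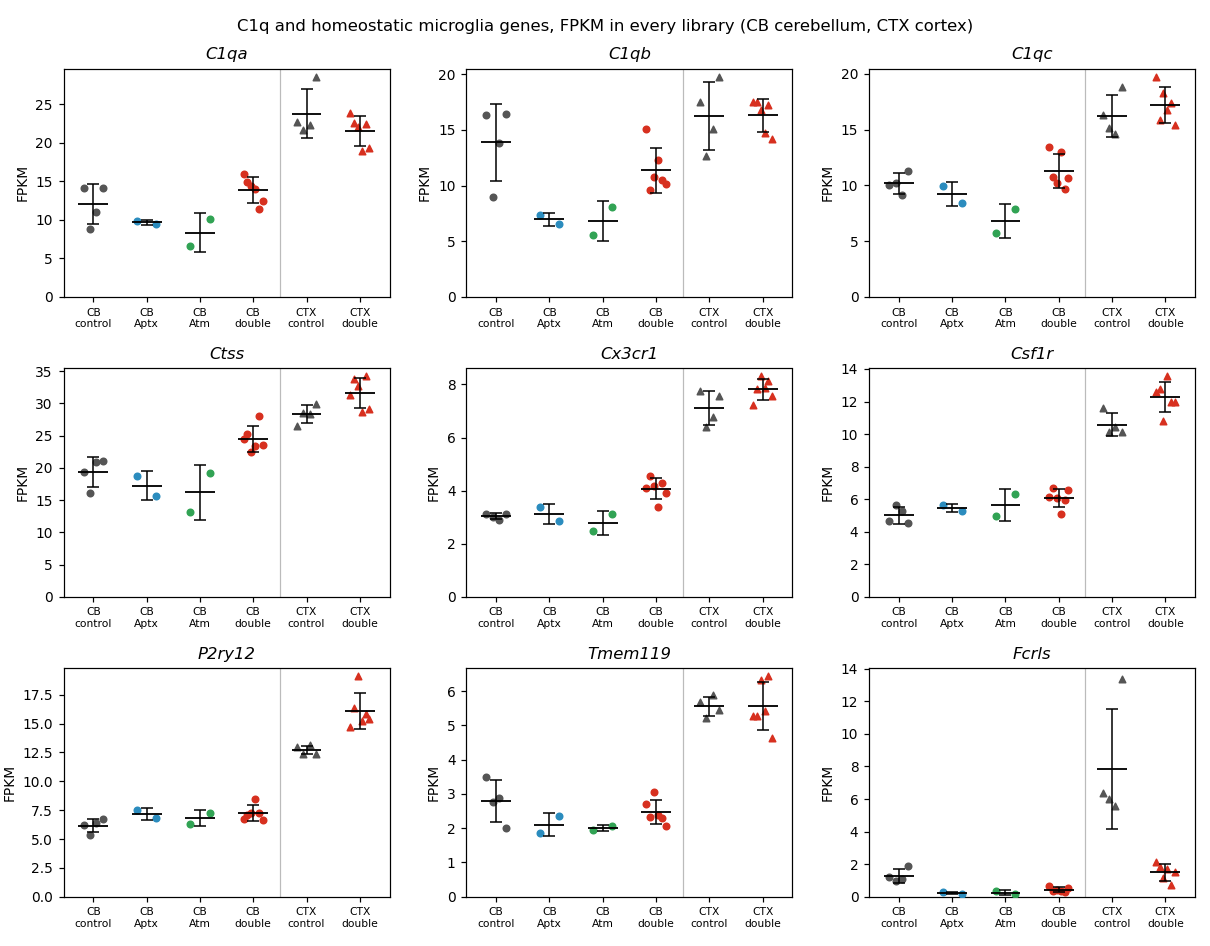
FPKM of each of the 9 genes in every library, by group (CB cerebellum, CTX cortex, single and double mutants by genotype), with 1 point per library, the mean as a long bar and the SD as short bars. Cortex lies above cerebellum for most genes, C1qb is lower in the 4 single-mutant cerebella than in every other cerebellum, and Fcrls is below every control of its tissue in all mutants.

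All of the genes but C1qb were lower in control cerebellum than in control cortex. The fold of cortex over cerebellum was 6.12 for Fcrls, 2.35 for Cx3cr1, 2.11 for Csf1r, 2.06 for P2ry12, 1.99 for Tmem119, 1.98 for C1qa, 1.59 for C1qc and 1.47 for Ctss, as ratios of mean FPKM. These 8 were called lower in cerebellum (limma, adjusted p at most 1.1e-05) with all 4 cerebellar below all 4 cortical controls, where 27.7% of 12292 tested genes were called lower, 37.4% higher and 65.2% in either direction, and 25% lay wholly lower and 34.3% wholly higher. For C1qb the cerebellar controls at 8.98 to 16.4 FPKM overlapped the cortical ones at 12.7 to 19.8 (log2 difference -0.23, SE 0.16, adjusted p = 0.20). With replicates paired across tissues it was called as well (adjusted p = 0.0384). Among other homeostatic microglia genes, a list of 26 that includes Trem2, Siglech and P2ry13, 17 of 18 tested were lower in control cerebellum and 1 was higher. In RNA from whole tissue, fewer microglia and less RNA per microglial cell cannot be told apart.

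The cerebella of double mutants, the animals with ataxia, were then set against those of the single mutants, since mice that lack either factor alone are described as having no overt behavioural phenotype. C1qa, C1qb, C1qc, Ctss and Cx3cr1 were higher in the double mutants, by 1.38- to 1.65-fold in mean FPKM, and Csf1r, P2ry12, Tmem119 and Fcrls were not called. The 5 calls compare with 1.13% of 13277 tested genes called higher and 0.851% called lower. The median log2 difference of the 9 genes was 0.36, and that of all tested genes was 0.00.

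C1qa, the A chain, stood at 9.88 and 9.46 FPKM in Aptx mutants, 6.54 and 10.1 in Atm mutants, and from 11.4 through a median of 14.2 to 16.0 in double mutants. Every double mutant was above every single mutant, and the controls at 14.1, 8.75, 11.1 and 14.2 FPKM reached into both. The log2 difference from the mean of the single mutants was 0.58 (SE 0.13, limma adjusted p = 0.0406).

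C1qb, the B chain, stood at 7.38 and 6.55 FPKM in Aptx mutants, 5.56 and 8.07 in Atm mutants, and from 9.59 through 10.6 to 15.1 in double mutants. Again no double mutant overlapped a single mutant, and all double mutants but number 1 lay below controls 1, 3 and 4, the controls measuring 16.4, 8.98, 13.8 and 16.4 FPKM. The difference was 0.65 (SE 0.16, adjusted p = 0.0487).

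C1qc, the C chain, stood at 9.98 and 8.44 FPKM in Aptx mutants, 5.71 and 7.87 in Atm mutants, and from 9.65 through 10.7 to 13.4 in double mutants. Aptx mutant 1 lay within the range of the double mutants, and the Atm mutants lay below it. The difference was 0.46 (SE 0.10, adjusted p = 0.0324), beside controls at 10.05, 10.2, 9.10 and 11.3 FPKM.

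Ctss had the lowest adjusted p of the 9 genes in this comparison. It stood at 18.8 and 15.6 FPKM in Aptx mutants, 13.2 and 19.2 in Atm mutants, and from 22.4 through 24.0 to 28.1 in double mutants. Controls measured 19.4, 16.1, 20.9 and 21.0 FPKM, so that the double mutants were above all other cerebella. The log2 difference from the single mutants was 0.54 (SE 0.10, adjusted p = 0.0141).

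Cx3cr1 stood at 3.38 and 2.86 FPKM in Aptx mutants, 2.47 and 3.10 in Atm mutants, and from 3.37 through 4.13 to 4.56 in double mutants. Double mutant 4, the lowest, touched Aptx mutant 1, and the other 5 double mutants lay above every single mutant. The difference was 0.36 (SE 0.08, adjusted p = 0.0294). Thus 3 of the 9 genes (C1qa, C1qb and Ctss) had no overlap, where 2.46% of tested genes did so in this direction and 2.07% in the other.

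For the remaining genes the 95% intervals of the log2 difference were -0.06 to 0.29 (Csf1r), -0.12 to 0.21 (P2ry12), -0.05 to 0.41 (Tmem119) and -0.05 to 0.46 (Fcrls). The comparison has only 4 single-mutant libraries and the count of calls moved with single libraries. It was 0 without Aptx mutant 2 or Atm mutant 1, 1 without Aptx mutant 1 or double mutant 1, 2 or 6, 2 without double mutant 3, and 3 without double mutant 5 or control 3, although the log2 differences of the 5 genes kept their sign in all 23 alternatives, for example at 0.41 to 0.67 for Ctss. With no filter on low FPKM 1 gene was called, with quantile normalization or median rescaling 3, with Ddx3y as a covariate 2, with only mutant libraries 3 and with a replicate block 0.

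Set against controls, C1qb fell in both single mutants and C1qc in Atm mutants, and C1qa was not called in either. C1qb fell in Aptx mutants (log2 -0.87, SE 0.21, adjusted p = 0.0138) and in Atm mutants (-0.91, SE 0.21, adjusted p = 0.0152), in each case with both mutants below all 4 controls. C1qc fell in Atm mutants (-0.53, SE 0.14, adjusted p = 0.0265) without overlap, and its log2 difference was -0.13 in Aptx mutants (adjusted p = 0.55). C1qa differed by -0.26 and -0.48 (adjusted p = 0.34 and 0.0981). Beside Fcrls, which the filter let in only through controls, 1 member was called lower in Aptx mutants, where 5.16% of tested genes were called lower and 10.4% higher, and 2 in Atm mutants, where the shares were 3.25% and 6.78%. Of tested genes 13.3% lay wholly below controls and 28.1% wholly above in Aptx mutants, and 11% and 23.9% did in Atm mutants. P2ry12 went the other way, with both Aptx mutants (7.50 and 6.79 FPKM) above all controls (at most 6.71), and was not called (log2 0.19, adjusted p = 0.22). No member was called higher in either, and the intervals for Cx3cr1 were -0.19 to 0.25 and -0.32 to 0.13. Fcrls included, the count of 2 in Aptx mutants was 1 without Aptx mutant 1 and 0 without Aptx mutant 2, and the count of 3 in Atm mutants was 1 without Atm mutant 1 and 2 without Atm mutant 2 or control 1 or 4. These comparisons share their controls with each other and with the next one.

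Double mutants against controls in cerebellum gave another set of calls. Ctss rose 1.27-fold in mean FPKM (log2 0.33, SE 0.10, adjusted p = 0.0222) and Cx3cr1 1.34-fold (0.33, SE 0.08, adjusted p = 0.00562), with no overlap for either gene. Csf1r rose 1.22-fold (0.24, SE 0.08, adjusted p = 0.0384), with double mutants from 5.10 through 6.12 to 6.67 FPKM and controls at 4.64, 5.64, 5.25 and 4.52. These 3 of 9 compare with 22.3% of tested genes called higher (32.4% in either direction), and the 2 without overlap with 15.5%, so the shares of the members were near those of all genes. The median log2 difference was 0.20 over the members and 0.06 over all tested genes. With Ddx3y as a covariate none of the 3 was called (adjusted p = 0.139 for Ctss, 0.0630 for Cx3cr1 and 0.194 for Csf1r), and with a replicate block only Cx3cr1 was. Of 23 alternatives, Cx3cr1 was past the threshold in 22, Ctss in 18 and Csf1r in only 12.

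The C1q genes were not called in this comparison. Their log2 differences were 0.21 (C1qa, 95% interval -0.08 to 0.49), -0.25 (C1qb, -0.58 to 0.09) and 0.13 (C1qc, -0.08 to 0.35). C1qb was lower with an adjusted p of 0.0238 when control 2, the lowest control, was left out. P2ry12 measured 6.65 through 7.15 to 8.51 FPKM in double mutants against 6.19, 5.34, 6.39 and 6.71 in controls (log2 0.20, SE 0.08, adjusted p = 0.0532) and was called without double mutant 1 or without control 4. Tmem119 measured 2.08 through 2.36 to 3.07 against 3.49, 2.77, 2.87 and 2.01 FPKM (-0.11, SE 0.11, adjusted p = 0.44), and its groups overlapped throughout.

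**Figure D2:**
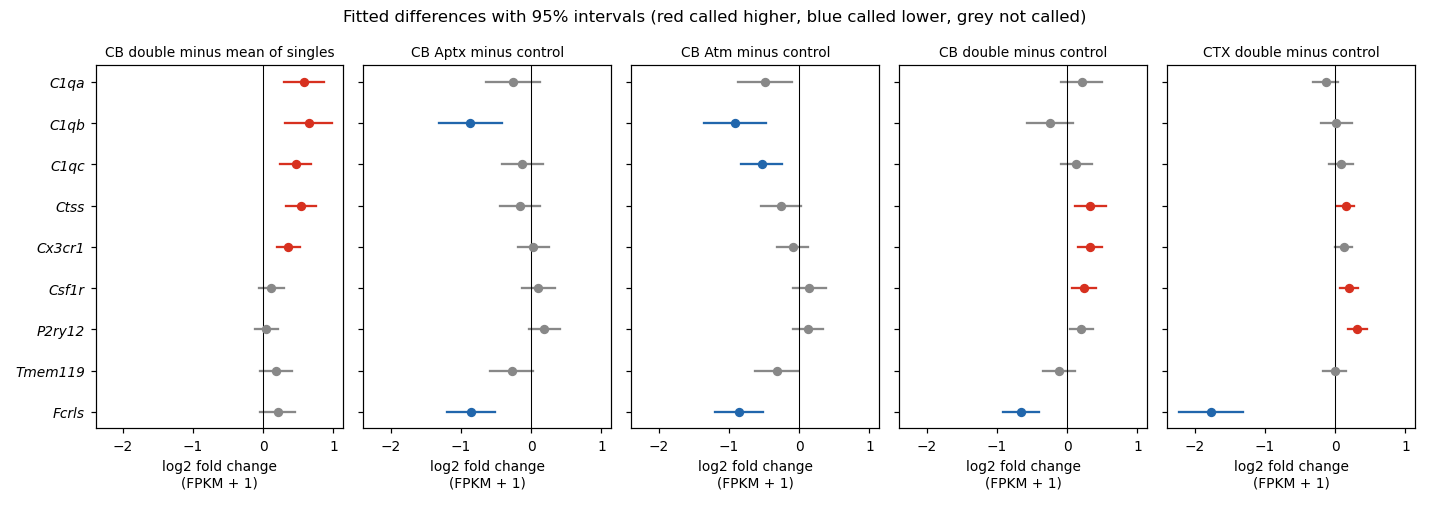
Fitted log2 fold changes of FPKM + 1 with 95% intervals for the 9 genes in 5 comparisons (CB cerebellum, CTX cortex), coloured red where called higher, blue where called lower and grey where not called. C1qa, C1qb, C1qc, Ctss and Cx3cr1 are to the right of 0 against the single mutants, and Fcrls is to the left of 0 in each comparison with controls.

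Fcrls was lower than control in every mutant group. Control cerebella measured 1.21, 0.935, 1.09 and 1.89 FPKM. The Aptx mutants measured 0.286 and 0.196, the Atm mutants 0.345 and 0.143, and the double mutants from 0.258 through a median of 0.394 to 0.681 FPKM. No mutant library reached a control library. The ratio of means was 2.94-fold lower in double mutants, 5.31-fold lower in Aptx mutants and 5.25-fold lower in Atm mutants. On the log2(FPKM + 1) scale, which understates changes of so low a gene, the differences were -0.66 (SE 0.12, adjusted p = 0.00101), -0.86 (SE 0.16, adjusted p = 0.00377) and -0.86 (SE 0.16, adjusted p = 0.00529). In cerebellum Fcrls passed the filter of 1 FPKM only through 3 of the 4 controls and in 0 of 10 mutants, so it could enter the test only as a gene high in controls, and its call there carries no weight as support. Of tested genes 10.1% were called lower in double mutants and 6.32% lay wholly below controls. Fcrls was not the only homeostatic gene called lower. Of the 19 tested on the list of other homeostatic genes, Ly86 was called lower in double, Aptx and Atm mutants. Of the same list 5, 1 and 2 genes were called higher, in that order.

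In cortex, where 5 of 6 double mutants and all controls reached 1 FPKM, Fcrls measured 6.38, 6.02, 5.57 and 13.4 FPKM in controls and from 0.688 through 1.62 to 2.13 in double mutants. The groups were far apart, with the highest double mutant under the lowest control. Of 12815 tested genes 14.5% were called lower in cortical double mutants and 9.39% lay wholly below controls. The ratio of means was 5.21-fold lower and the log2 difference -1.77 (SE 0.21, adjusted p = 6.2e-05), or -1.51 without control 4, the high control. It was past the threshold in all 18 alternatives, at adjusted p of 6.9e-05 to 0.00362. Of 24 other homeostatic genes tested in cortex, 3 (Siglech, Aif1 and Ly86) were called lower and 6 higher. Double mutant 6, whose column has the number format of the controls, lay with the other mutants at 0.524 FPKM in cerebellum and 1.51 in cortex.

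P2ry12, a gene of the same cell type that was itself called higher in cortical double mutants, was set beside Fcrls in each library. The ratio of Fcrls to P2ry12, both in FPKM, was 0.170 to 0.281 in control cerebella and 0.0196 to 0.102 in the 10 mutant cerebella. In cortex it was 0.424 to 1.08 in controls and 0.0433 to 0.145 in double mutants. In each tissue the ratios of controls and mutants did not overlap. In cortex this was fixed in advance, since every double mutant lay below every control for Fcrls and above every control for P2ry12. In cerebellum Fcrls passed the filter only through controls. The ratio is therefore a description and no further support.

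**Figure D3:**
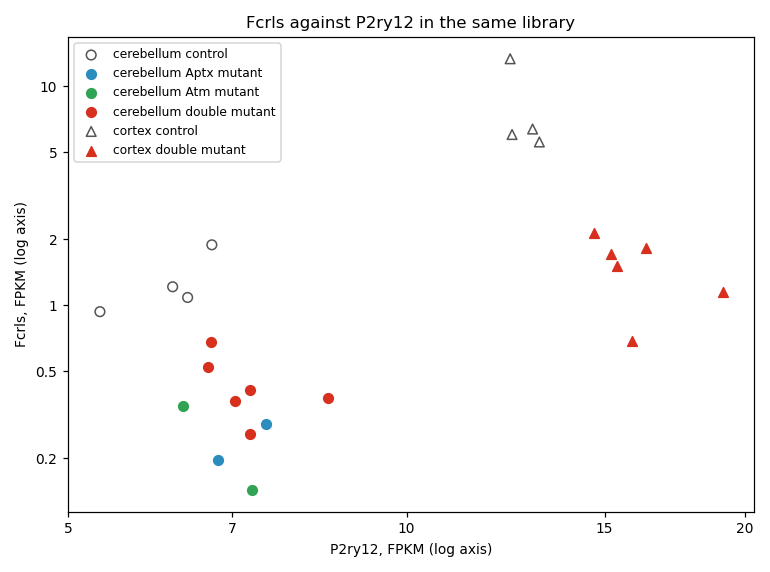
Fcrls against P2ry12 in each library, in FPKM, on log axes, with circles for cerebellum and triangles for cortex, open symbols for controls and filled ones for mutants. At like or higher P2ry12, mutants lie below the controls of their tissue, at 0.143 to 0.681 FPKM of Fcrls for the cerebella and 0.688 to 2.13 for the cortices.

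In cortex, 3 of 9 genes rose in double mutants, where 24.3% of 12815 tested genes were called higher, 14.5% lower and 38.8% in either direction. P2ry12 measured 12.9, 12.4, 13.1 and 12.4 FPKM in controls and from 14.7 through 15.6 to 19.1 in double mutants, without overlap (log2 0.31, SE 0.06, adjusted p = 0.0017). Of tested genes 17.7% had no overlap in that direction and 9.39% in the other. Csf1r measured 11.6, 10.1, 10.5 and 10.1 FPKM against 10.8 through 12.3 to 13.6 (0.20, SE 0.06, adjusted p = 0.0201), with some overlap. Ctss measured 26.6, 28.5, 28.4 and 30.0 FPKM against 28.7 through 32.0 to 34.3 (0.15, SE 0.06, adjusted p = 0.0485) and was past the threshold in 5 of 18 alternatives. With a replicate block Fcrls and P2ry12 were called, with Ddx3y as a covariate Fcrls and Csf1r, and 2 genes were called without control 2 or without control 3.

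The C1q genes of the cortex did not differ beyond their spread. Control and double-mutant means were 23.8 ± 3.16 and 21.5 ± 1.97 FPKM for C1qa, 16.2 ± 3.07 and 16.3 ± 1.48 for C1qb, and 16.2 ± 1.91 and 17.2 ± 1.60 for C1qc (SD, n = 4 and 6). The 95% intervals of the log2 differences were -0.31 to 0.04, -0.20 to 0.24 and -0.08 to 0.25. Cx3cr1 (0.12, adjusted p = 0.11) and Tmem119 (-0.00, adjusted p = 0.98) were not called either.

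Whether the double-mutant effect differed between tissues was tested as the difference of the differences. Fcrls was the only member called, its log2 fall being smaller in cerebellum (1.11, SE 0.26, adjusted p = 0.00431), where 15.4% of tested genes were called higher, 11.7% lower and 27% in either direction. The cerebellar side rests on a gene that passed the filter only through controls, and the call rested on the pseudocount, since with 0.1 or 0.01 in place of 1 the difference was 0.92 and 0.82 (adjusted p = 0.0953 and 0.176). The labels number the libraries alike in both tissues, and with these pairs as a block C1qa was called too (0.34, adjusted p = 0.0279), which was not the case without it (adjusted p = 0.12). Without cerebellar double mutant 4 Cx3cr1 was called as a second gene (0.25, adjusted p = 0.0241).

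The members did not vary as a single set among libraries. In cerebellum, the correlation of each gene with the mean of the other 8 over the 14 libraries was 0.94 for C1qa, 0.86 for Ctss, 0.81 for C1qc and 0.70 for C1qb and Cx3cr1. It was 0.26 for Tmem119, 0.15 for P2ry12, 0.13 for Csf1r and 0.09 for Fcrls. In the 10 cortex libraries it ran from -0.44 for Fcrls to 0.81 for C1qb. Groups, tissue pieces and library scaling are shared by these points, so the values are a description. The stoichiometry of C1q transcripts also varied, since C1qb per C1qc was 0.880 to 1.63 in control cerebella, 0.739 to 0.776 in Aptx mutants, 0.973 to 1.02 in Atm mutants and 0.890 to 1.12 in double mutants. Outside the members, the genes most like their mean profile over the 14 cerebella were Id3, Rassf2, Phgdh, Il33, Ssr4 and Stmn4 (Pearson r of 0.88 to 0.87), and over the 10 cortex libraries Tnfaip8l1, Anxa4, Mrpl36, Pigp, Hist1h1c and Ppp3cc (0.90 to 0.87).

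Of the 3 ligands of the member receptors, Cx3cl1 and Il34 fell in double-mutant cerebellum and rose in double-mutant cortex. Among all tested genes 10.1% were called lower and 22.3% higher in cerebellar double mutants, with 6.32% wholly below controls, and 24.3% were called higher in cortex. Lower calls made up 5.16% in Aptx and 3.25% in Atm mutants, with 13.3% and 11% wholly below controls. Library series cannot be told apart from genotype in any of these. Cx3cl1 encodes fractalkine, the neuronal ligand of Cx3cr1. It measured 14.7, 17.3, 14.8 and 11.1 FPKM in control cerebella, 9.88 and 9.60 in Aptx mutants, 12.1 and 11.6 in Atm mutants, and from 7.92 through 9.05 to 9.90 in double mutants. All double mutants were below all controls, and it fell in double mutants (log2 -0.63, adjusted p = 3.4e-04) and Aptx mutants (-0.51, adjusted p = 0.0179). In cortex it rose from 71.1 ± 5.40 FPKM in controls to 94.5 ± 6.36 in double mutants (0.40, adjusted p = 2.2e-04).

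Il34, the neuronal ligand of Csf1r, measured 5.30, 6.32, 5.50 and 3.61 FPKM in control cerebella and 1.94 to 3.04 in all 10 mutant cerebella, again without overlap. It fell in double mutants (log2 -0.89, adjusted p = 1.0e-04), Aptx mutants (-1.01, adjusted p = 0.00138) and Atm mutants (-0.84, adjusted p = 0.00542), and rose in cortex from 13.5 ± 0.571 to 15.1 ± 0.983 FPKM (0.15, adjusted p = 0.0375). In 9 of 18 alternatives only 1 of the 3 ligands was called in cortex, among them those without double mutant 1, 3 or 5 or without control 3 or 4, and Il34 had the higher adjusted p of the pair. Csf1, the other ligand, rose in cerebellar double mutants from 4.19 ± 0.410 to 5.45 ± 0.834 FPKM (0.31, adjusted p = 0.0229). The difference between tissues was called for Cx3cl1 (-1.03, adjusted p = 1.5e-05), Il34 (-1.04, adjusted p = 4.1e-05) and Csf1 (0.39, adjusted p = 0.0340). None of the 3 differed by call between double and single mutants, where Cx3cr1 did and Csf1r did not.

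**Figure D4:**
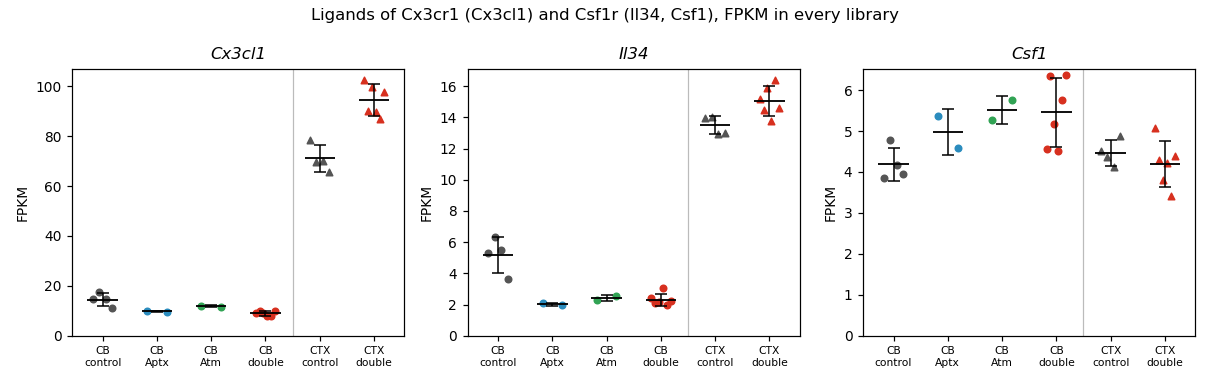
FPKM of Cx3cl1, Il34 and Csf1 in every library by group (CB cerebellum, CTX cortex), with 1 point per library, the mean as a long bar and the SD as short bars. Cx3cl1 and Il34 are below every control in double-mutant and Aptx-mutant cerebella, the Atm mutants reach into the controls for Cx3cl1, and both genes have a higher mean in double-mutant than in control cortex.

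Of the complement cascade beyond C1q, 18 genes were listed and only 5 passed the filter in cerebellum. C4b, the next component of the classical pathway, rose in double mutants from 3.78 ± 0.428 to 6.14 ± 0.892 FPKM (log2 0.57, adjusted p = 0.00202), and against the single mutants its difference was 0.47 (adjusted p = 0.0507). Among regulators 1 of 14 tested genes was called against the single mutants. This was Clu, encoding clusterin, an extracellular chaperone that also restrains the terminal complex, at 173 ± 9.04 FPKM in double mutants, 151 ± 10.2 in Aptx mutants, 138 ± 5.51 in Atm mutants and 131 ± 8.47 in controls (0.26, adjusted p = 0.0316). No regulator was called higher without double mutant 1, 2, 3, 5 or 6 or without any of the single-mutant libraries, nor with no filter, quantile normalization, the replicate block or Ddx3y as a covariate. No complement receptor of 4 tested was called there. Cst3, which encodes cystatin C, an inhibitor of cathepsin S, measured 267 ± 13.2 FPKM in double mutants, 214 ± 2.36 in Aptx mutants, 207 ± 1.39 in Atm mutants and 305 ± 41.5 in controls. Like C1qb it fell in Aptx mutants (-0.50, adjusted p = 0.0064) and Atm mutants (-0.55, adjusted p = 0.0058) and was higher in double than in single mutants (0.34, adjusted p = 0.0355). The last call was lost without the same libraries as that of Clu, and with no filter, median rescaling, the replicate block or Ddx3y as a covariate.

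The remaining microglial lists had fewer calls in that comparison. Of 19 other homeostatic genes tested 0 were called, with a median log2 difference of 0.22 beside 0.00 for all genes. Fcgr3, an Fc receptor, was at 0.34 (adjusted p = 0.0626), Trem2, a lipid receptor, at 0.30 (adjusted p = 0.0948) and the lectin Siglech at 0.36 (adjusted p = 0.12). Of 13 activated-microglia genes 3 were called higher. They were the lysosomal protein Cd68 (0.46, adjusted p = 0.0391), which measured 3.18 ± 0.421 FPKM in double mutants, and the tetraspanins Cd63 (0.34, adjusted p = 0.0195) and Cd9 (0.35, adjusted p = 0.046), which other brain cells also express. With single libraries left out, the count of calls in this list ran from 0 to 4. Of 8 tested genes of microglial transcription and TGF-beta signalling 0 were called against the single mutants. Against controls, where library series cannot be told apart from genotype, 6 of 13 activated-microglia genes were higher in cerebellar double mutants and 0 lower. Of the other homeostatic genes 5 of 19 were higher and 1 lower, and of the transcription and TGF-beta genes 3 of 8 higher and 0 lower. Among all tested genes 22.3% were called higher there and 10.1% lower. Sfpi1, which encodes PU.1, was under 1 FPKM in every library and did not pass the filter. In cerebellum it stood at 0.533 to 0.949 FPKM in controls and 0.126 to 0.352 in double mutants. Aptx mutants measured 0.141 to 0.498 FPKM and Atm mutants 0.0734 to 0.388. In cortex its mean was 0.425 ± 0.121 FPKM in controls and 0.643 ± 0.172 in double mutants.

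Markers of other cells moved beside these results. Summed FPKM of the border macrophage list was 13.7 to 21.2 in double-mutant, 15.2 to 30.2 in Aptx-mutant, 12.2 to 16.6 in Atm-mutant and 10.9 to 18.5 in control cerebella. Of its 8 tested genes 0 were called against the single mutants, as were 0 of 3 blood leukocyte genes. Reactive astrocyte genes summed to 152 to 178 FPKM in double mutants against 108 to 135 in single mutants and 70.4 to 86.2 in controls. Gfap, the astrocyte filament, was the 1 of 8 called against the single mutants (0.87, adjusted p = 0.00496). Oligodendrocyte genes summed to 820 to 881 FPKM against 647 to 825, with 1 of 8 called higher, and Purkinje cell genes to 884 to 985 against 1367 to 1508, with 3 of 9 lower. Control cerebella lay between at 1115 to 1306 FPKM, and 6 of the 9 Purkinje cell genes were higher than control in Aptx mutants and 2 in Atm mutants, beside the lower C1qb. Granule neuron genes summed to 601 to 730 FPKM in controls and 827 to 939 in single mutants, with 4 of 7 higher in each. In cortex 7 of 8 oligodendrocyte genes were lower in double mutants, at a sum of 490 to 794 against 936 to 1055 FPKM, and 4 of 5 red blood cell genes higher, at 373 to 926 against 141 to 546. Among 7 cortical excitatory neuron genes tested there, 6 were higher and 1 lower, at a sum of 189 to 247 against 143 to 169 FPKM. Of all tested genes 24.3% were called higher and 14.5% lower in cortical double mutants. The shares called higher than control were 10.4% in Aptx and 6.78% in Atm mutants. For double against single mutants 1.13% were called higher and 0.851% lower. In the comparisons with controls library series cannot be told apart from genotype. The part of these cell types in the results of the members was not tested.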

How the data were processed

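Stranded total RNA libraries of mouse cerebellum (14) and cortex (10) were analysed. Per the labels and the study's methods, the authors removed ribosomal RNA, aligned reads to mm9 with BWA 0.5.10, counted genes with HTSeq (version not given in the sources used here) and deposited FPKM, 1 column per library. No counts were in the files, so absolute depth is unknown and intervals cover only the spread between libraries. FPKM are relative to the library, so each value depends on all other transcripts.

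A pseudocount of 1 was added and log2 taken. A gene entered a test when it reached 1 FPKM in at least 2 cerebellum or at least 4 cortex libraries, both filters applying to fits of both tissues. The models were limma 3.58.1 under R 4.3.3, two-sided, with trended empirical Bayes moderation and Benjamini-Hochberg adjustment over all genes tested, a procedure tested on simulated data. Calls required an adjusted p below 0.05. The 14 cerebellum libraries entered 1 fit with 4 groups, the cortex libraries another, and double mutants and controls of both tissues (20 libraries) a further fit, which gave the differences between tissues. The mean of single mutants is the mean of the Aptx and Atm group means.

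Replicate numbers were taken from the labels. Deviations from group means of same-numbered libraries correlated across tissues at 0.235 to 0.500 in double mutants, whose names share a code between tissues. In controls they correlated at 0.131 to 0.309. The numbers were taken as pairs there in the replicate block only. The main fits of both tissues ignored these pairs and treated the 20 libraries as independent. Within a tissue they share only a number.

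All 9 members are named with values. From 18 further lists, counts and up to 4 genes with the smallest p against the single mutants may be named, plus the 3 ligands and, per tissue, the 6 genes most correlated with the members' mean standardized profile, uncharacterised symbols passed over. Sfpi1, named for the promoter search, and Ly86 and Aif1, named for their lower calls against controls, were chosen outside this rule. Of 213 listed genes 210 were matched. Members, lists and tests were chosen with earlier results of these data known. Alternatives were pseudocounts of 0.1 and 0.01, no filter, quantile normalization, median rescaling, a replicate block, Ddx3y as a covariate, no trend, restricted fits and leaving out each library.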

Additional observations from a re-analysis of the deposited data

Results flagged for a closer look

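Some values stood apart from their group. In 36 groups of 4 or 6 libraries (9 genes in 4 groups) the gap between the most extreme library and its neighbour was compared with the whole range, and chance alone marks about 1 in 20 groups, while 4 were marked here. In cortex control 4, Fcrls was 13.4 FPKM, the highest of 4, and C1qa was 28.5 FPKM, also the highest of 4. This is the library in which Gm10654 was highest, at 322070 FPKM, with the other cortex controls at 2951 to 7289. Fcrls was the highest of the 4 controls in cerebellum control 4 as well, at 1.89 FPKM. P2ry12 was 8.51 FPKM in cerebellar double mutant 4 and 19.1 FPKM in cortical double mutant 3, each the highest of 6.

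The double-mutant effect on Fcrls differed between tissues, with a log2 difference of 1.11 between the fall in cerebellum and the larger fall in cortex (limma, adjusted p = 0.00431). The difference was not called with a pseudocount of 0.1 or 0.01 (adjusted p = 0.0953 and 0.176), and in cerebellum Fcrls passed the filter only through controls. Without cortex control 4 it was 0.85. Its ratio of means to control was 2.94-fold lower in cerebellum and 5.21-fold lower in cortex.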

How the results depend on the processing

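The number of the 9 genes called was compared across settings, beside 4 for double mutants against controls in cerebellum, 2 for Aptx mutants, 3 for Atm mutants, 5 for double against single mutants, 4 in cortex, 1 for the difference between tissues and 8 between control tissues. Leaving out each library gave 3 to 4, 0 to 2, 1 to 4, 0 to 5, 2 to 4, 1 to 2 and 8 to 8 in that order. The replicate block gave 2 in cerebellum, 2 in cortex, 0 for double against single mutants and 2 for the difference between tissues. Ddx3y as a covariate gave 1 in cerebellum, 2 in cortex and 2 for double against single mutants. Double against single mutants gave 1 with no filter and 3 with quantile normalization, with median rescaling or with only mutant libraries, and the difference between tissues gave 0 with a pseudocount of 0.1 or 0.01. The cause was not tested. Within a tissue same-numbered libraries of different genotypes correlated at -0.19 to 0.34.

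Of 1475 alternative values of 63 differences, 1344 kept direction and side of the threshold, 100 were no longer past it, 7 newly passed it and 24 changed sign, all in 8 differences that were not called. Cx3cr1 in Aptx mutants was -0.014 with median rescaling, -0.015 with the replicate block, -0.062 with Ddx3y and -0.062 to 0.12 with libraries left out. In Atm mutants leaving out libraries gave -0.21 to 0.025 for Cx3cr1 and -0.0076 to 0.29 for Csf1r. P2ry12 was -0.014 with the block for double against single mutants. In cortex C1qb was -0.040 with quantile normalization, -0.0087 with median rescaling, -0.030 with Ddx3y and -0.088 to 0.11 with libraries left out, and Tmem119 was 0.0033 with the block and -0.041 to 0.039 with libraries left out. Between tissues C1qc ran from -0.023 to 0.097 and Csf1r from -0.00039 to 0.090 with libraries left out. Quantile normalization and median rescaling moved the share of calls that were higher in cerebellar double mutants against controls from 68.9% to 52.2% and 49.8%, in Aptx mutants from 66.9% to 50.6% and 45.2%, in Atm mutants from 67.6% to 48.3% and 47.5%, and in cortex from 62.6% to 49.6% and 53.1%. With only mutant libraries Fcrls did not pass the filter and has no value. The groups of 2 libraries limit the single-mutant comparisons.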
